A study of Chimonocalamus delicatus with 27 samples.

Results

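A bamboo RNA sequencing study holds 55972 genes in its growth stage table and 57356 in its plant part table. Of the genes described as sesquiterpene synthases of the germacrene, bisabolene and macrocarpene type, 4 are followed here. Another 15 genes of the growth stages and 16 of the plant parts share these descriptions and are described further below. PH02Gene40249 (symbol TPS2) and PH02Gene48180 (symbol VIT_19s0014g04930) carry the description (-)-germacrene D synthase, PH02Gene05612 (symbol TPS7) carries (S)-beta-bisabolene synthase, and PH02Gene44577 (symbol TPS26) carries (S)-beta-macrocarpene synthase. They were chosen by identifier, with their levels and changes in these libraries already known. Their levels and differences between groups are therefore given as a description, and only genes outside the 4 carry a test. A fitted log2 change with its standard error (SE) is printed for them, and no p-value or call. The descriptions come from Indosasa hispida, Sorghum bicolor and Setaria italica, so they name the most similar annotated protein and not a measured enzyme activity. All 4 carry the KEGG orthology number K15803, KEGG's entry for (-)-germacrene D synthase, which 42 genes of each table share.

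Total RNA of Chimonocalamus delicatus, a fragrant bamboo of Yunnan, was sequenced in 27 libraries, 3 in each of 9 groups, to compare terpenoid genes between ages of the culm (the bamboo stem) and between organs. The growth stage set holds the shoot and stems of 0.5, 1, 2 and 3 years, and the plant part set holds leaves, branches, rhizomes (underground stems) and stems whose age the labels do not give, called the part-set stem. No treatment separates the groups, the genotype field of the labels holds only library names, and nothing says whether the replicates are different plants, so a p-value here reflects only how much these libraries vary, possibly for technical reasons. A growth stage library held 8615092 to 12422327 expected counts and a plant part library 6257623 to 9010973. A gene with 0 counts thus lay under 0.242 to 0.348 CPM, a unit that relates counts to the library's total, among growth stages and below 0.333 to 0.479 CPM among plant parts, the level of 3 counts, a limit that covers counting error only.

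Terpene synthases turn a linear prenyl diphosphate into a hydrocarbon or an alcohol, which is often volatile. Sesquiterpene synthases act in the cytosol on farnesyl diphosphate, which the mevalonate route and farnesyl diphosphate synthase supply and which squalene synthase also draws on for sterols. Germacrene D is a widespread component of plant scents and resins. In maize, beta-bisabolene is formed on the way to beta-macrocarpene, the precursor of the zealexin defence compounds. Cytochromes P450 then oxidise such hydrocarbons further.

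Both germacrene D synthase genes were most abundant in the 0.5-year stem among the growth stages. PH02Gene40249 had 1.86, 0.571 and 16.9 FPKM in the shoot libraries, 54.3, 57.1 and 54.1 FPKM at 0.5 years, 29.2, 12.99 and 37.5 FPKM at 1 year, 10.1, 18.9 and 7.01 FPKM at 2 years, and 9.05, 13.2 and 6.71 FPKM at 3 years. FPKM relates fragments to gene length and library size, so levels of different genes can be set side by side. The 3 libraries of the 0.5-year stem lay above all other stem and shoot libraries, and those of the 1-year, 2-year and 3-year stems overlapped from each age to the next. Group means were 6.44 ± 9.07 FPKM in shoots, 55.2 ± 1.67 at 0.5 years, 26.6 ± 12.4 at 1 year, 12.02 ± 6.195 at 2 years and 9.66 ± 3.30 at 3 years (SD, n = 3 each).

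PH02Gene48180 ran at a lower level with the same order of group means. It had 0.743, 0 and 7.95 FPKM in shoots, 22.9, 28.3 and 26.8 FPKM at 0.5 years, 6.88, 4.70 and 17.7 FPKM at 1 year, 4.41, 8.67 and 3.31 FPKM at 2 years, and 3.38, 6.597 and 2.38 FPKM at 3 years. Again the 0.5-year libraries stood above the rest without overlap, and the shoot overlapped with the 1-year, 2-year and 3-year stems through its library 3.

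Shoot library 3 held the highest shoot value of both genes and also stood apart in other genes. Light harvesting and photosystem genes, 84 in the table, summed to 815, 473 and 2041 FPKM in shoot libraries 1 to 3, with 15 to 17 of them at 0. Secondary wall genes, which here are laccases and cellulose synthase subunits of the secondary wall type, 72 in all, summed to 436, 499 and 1118 FPKM, with 40, 41 and 20 at 0. The part of these differences in the shoot values of the synthases was not tested. Without shoot library 3, the log2 change at 0.5 years against shoots was 5.78 for PH02Gene40249 and 6.19 for PH02Gene48180, against 3.53 and 3.57 with all libraries.

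The bisabolene synthase gene PH02Gene05612 was nearly silent in shoots and abundant in every age of stem. It had 0, 0.138 and 0.363 FPKM in shoots, 48.0, 53.6 and 53.0 FPKM at 0.5 years, 14.8, 52.1 and 49.9 FPKM at 1 year, 14.7, 47.6 and 53.5 FPKM at 2 years, and 39.6, 5.76 and 47.0 FPKM at 3 years. All 12 stem libraries were above all 3 shoot libraries, and the 4 stem ages overlapped. A single low library in each of the 1-year, 2-year and 3-year stems (library 1, library 1 and library 2) set the wide spread of those groups, whose means were 38.9 ± 20.9, 38.6 ± 20.9 and 30.8 ± 21.998 FPKM, beside 0.167 ± 0.183 in shoots and 51.5 ± 3.05 at 0.5 years (SD, n = 3 each). The shoot mean rests on 4 counts in all, against 1286 counts at 0.5 years.

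The macrocarpene synthase gene PH02Gene44577 was low in every growth stage and lowest in the 0.5-year stem. Its values were 1.72, 2.05 and 1.35 FPKM in shoots, 0, 0.055 and 0.145 FPKM at 0.5 years, 0.136, 3.23 and 0.296 FPKM at 1 year, 2.90, 0.143 and 2.85 FPKM at 2 years, and 1.61, 0.949 and 1.19 FPKM at 3 years. Shoots and 3-year stems were above all 0.5-year libraries, whereas 1-year and 2-year libraries spread from 0.136 to 3.23 FPKM. The 0.5-year group held 3 counts, the shoot group 80, the 1-year group 47, the 2-year group 76 and the 3-year group 57.

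**Figure D1:**
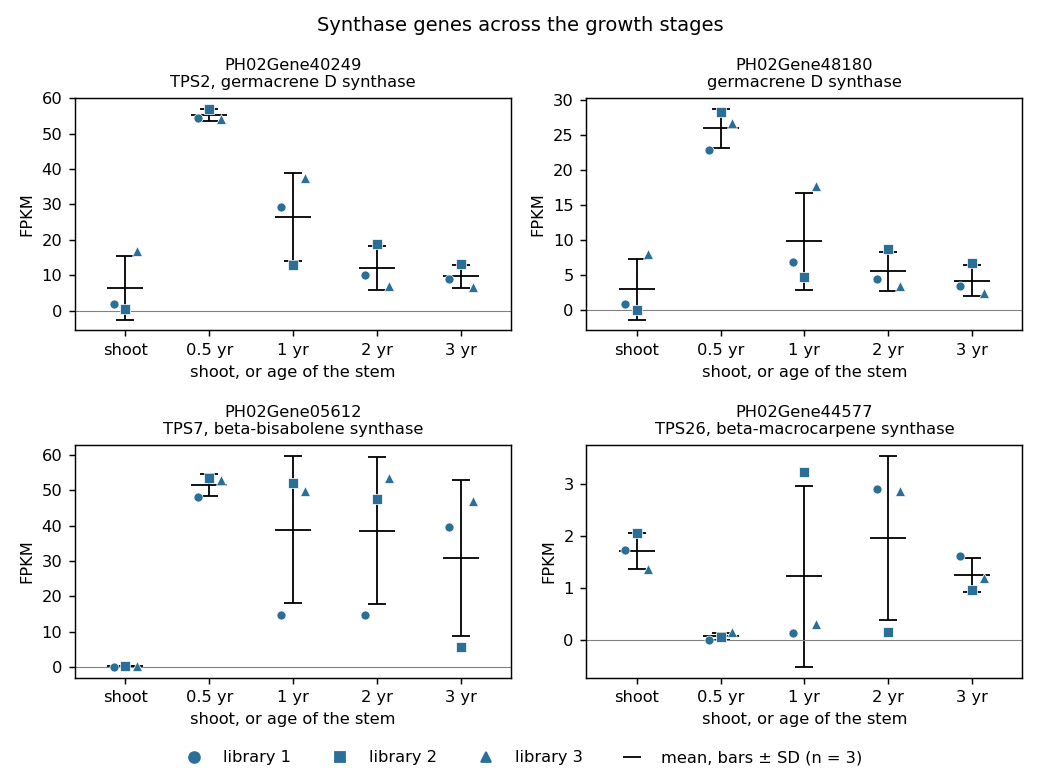
FPKM of the 4 synthase genes (y axes, 1 scale per gene) in the shoot and in stems of 0.5 to 3 years (x axes), with a point for each library, the mean as a bar and ± SD (n = 3). The germacrene D synthase genes peak at 0.5 years (55.2 and 26.0 FPKM on average), the bisabolene synthase gene is high in all stem ages and the macrocarpene synthase gene stays below 4 FPKM.

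Among plant parts, the germacrene D synthase genes were highest in the stem and nearly absent from the leaf. PH02Gene40249 had 0.108, 0.529 and 0.207 FPKM in leaves, 19.7, 14.2 and 39.4 FPKM in branches, 7.35, 10.3 and 8.99 FPKM in rhizomes, and 30.4, 44.2 and 69.6 FPKM in part-set stems. The leaf libraries were below all others, the rhizome libraries were below all branch and stem libraries, and branch and stem overlapped. Means were 0.281 ± 0.220 FPKM in leaves, 24.4 ± 13.2 in branches, 8.88 ± 1.47 in rhizomes and 48.1 ± 19.9 in stems (SD, n = 3 each).

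PH02Gene48180 had no counts in any leaf library. Its FPKM values were 10.3, 5.71 and 20.2 in branches, 5.96, 3.49 and 9.19 in rhizomes, and 13.98, 21.1 and 30.5 in part-set stems. Rhizome and branch overlapped, branch and stem overlapped, and the rhizome stayed below the stem.

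The macrocarpene synthase gene was highest in the leaf, where both germacrene D synthase genes were lowest, and like them it was lower in the rhizome than in the stem. PH02Gene44577 had 54.9, 62.3 and 58.2 FPKM in leaves, 2.29, 7.80 and 1.97 FPKM in branches, 0 in all rhizome libraries, and 3.64, 1.91 and 0.164 FPKM in part-set stems. Leaf libraries lay above all others, branch and stem overlapped, and the rhizome, with 0 counts, was below every other library. Stem library 3 held only 2 counts, too few to tell from 0. The leaf mean of 58.5 ± 3.71 FPKM stood beside 4.02 ± 3.28 in branches and 1.90 ± 1.74 in stems (SD, n = 3 each).

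The bisabolene synthase gene PH02Gene05612 was low in all plant part libraries but 1 and did not pass the filter of 1 FPKM in 3 libraries there. It had 0.676, 0.150 and 0.941 FPKM in leaves, 1.43, 0.308 and 0.285 FPKM in branches, 0.286, 0 and 0 FPKM in rhizomes, and 0, 0 and 11.5 FPKM in part-set stems. Stem library 3 held all 75 counts of this gene in stems, where leaves had 11, branches 11 and rhizomes 2. The 4 stem ages of the growth stage set, a table normalized separately, had 5.76 to 53.5 FPKM, and no test was made across the tables.

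**Figure D2:**
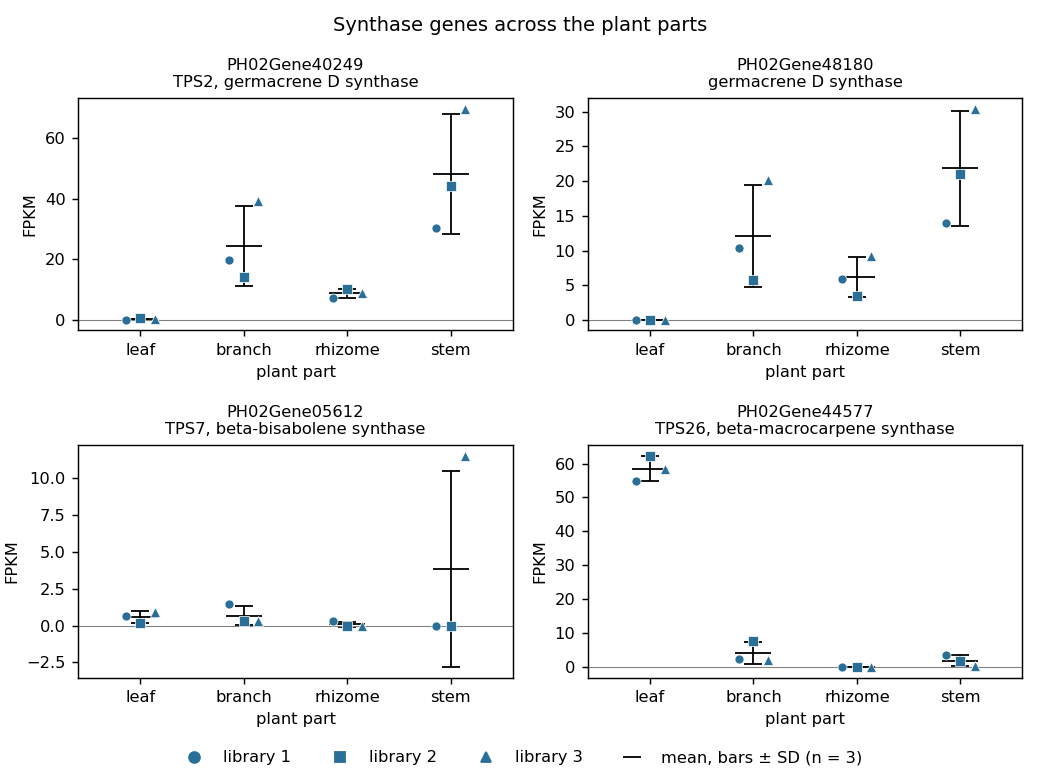
FPKM of the 4 synthase genes (y axes, 1 scale per gene) in leaf, branch, rhizome and stem of the plant part set (x axes), with a point for each library, the mean as a bar and ± SD (n = 3). The macrocarpene synthase gene is high in leaves (58.5 FPKM on average) where the germacrene D synthase genes are at or near 0, and the bisabolene synthase gene reaches 11.5 FPKM in stem library 3 alone.

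Both germacrene D synthase genes varied together from library to library. The ratio of PH02Gene40249 to PH02Gene48180 in FPKM had a median of 2.17 over the 23 libraries in which PH02Gene48180 was above 0, with a range of 0.979 to 4.25. Its median was 2.02 at 0.5 years, 2.77 at 1 year, 2.19 at 2 years and 2.68 at 3 years, and 1.95 in branches, 1.23 in rhizomes and 2.17 in part-set stems. The 2 lowest ratios of all, 0.979 and 1.23, were in rhizome libraries, the third of which had 2.95. On the log2(FPKM + 1) scale their Pearson correlation was 0.982 over the 15 growth stage libraries and 0.981 over the 12 plant part libraries. Such values are descriptions, since libraries of a group share an organ and their groups lie far apart.

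**Figure D3:**
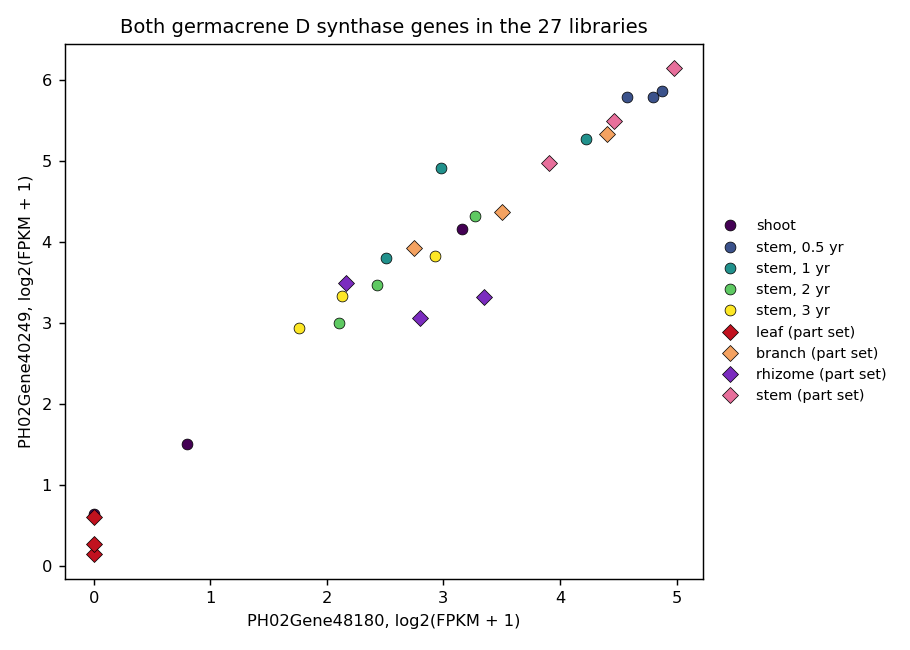
Level of PH02Gene40249 (y axis) against PH02Gene48180 (x axis), both as log2(FPKM + 1), with a point for each of the 27 libraries, circles for growth stages and diamonds for plant parts. Points run along 1 diagonal, with leaves at the lower end, 0.5-year and part-set stems at the upper end, and the rhizome libraries spread around it.

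Over all libraries of each set, the macrocarpene synthase gene correlated negatively with both germacrene D synthase genes. Among plant parts the contrast lay in leaves, at 58.5 FPKM on average against 0.281 and 0 FPKM. All 3 genes had lower means in rhizomes than in stems, and no correlation was computed without the leaves. Among growth stages PH02Gene44577 was at most 3.23 FPKM, with 3 counts at 0.5 years, so its order there rests on low values. The correlation of PH02Gene44577 was -0.739 with PH02Gene40249 and -0.733 with PH02Gene48180 over the growth stage libraries, and -0.763 and -0.800 over the plant part libraries. The correlation of PH02Gene05612 was 0.629 with PH02Gene40249 and 0.594 with PH02Gene48180 over the growth stages, and 0.247 and 0.241 over the plant parts. Between PH02Gene05612 and PH02Gene44577 it was -0.324 over the growth stages and -0.0990 over the plant parts.

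The counts behind the genes differ in kind. For PH02Gene05612 and PH02Gene44577 the deposited expected counts were whole numbers in every library above 0 (22 of 22 and 23 of 23), whereas they were whole in 3 of 27 libraries for PH02Gene40249 and 1 of 23 for PH02Gene48180. Fractions can arise where a read fits more than 1 gene and is divided, so levels of the 2 germacrene D synthase genes are uncertain to the extent that reads were shared with similar genes. The gene lengths implied by counts and FPKM were 1773 bases for PH02Gene40249, 1056 for PH02Gene48180, 780 for PH02Gene05612 and 1464 for PH02Gene44577. No sequence of these genes was used here.

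Against the shoot, the 0.5-year stem had higher levels of 3 of the 4 genes and a lower level of PH02Gene44577. The libraries of these genes did not overlap. The share of all genes without overlap was not counted in any comparison, so nothing is read from such a lack of overlap. The log2 changes fitted to the counts were 3.53 ± 0.80 (SE) for PH02Gene40249, 3.57 ± 0.87 for PH02Gene48180, 8.52 ± 1.06 for PH02Gene05612 and -4.21 ± 1.34 for PH02Gene44577. As background from which nothing is read for the 4, 26.5% of the 29538 genes tested were called higher and 27.3% lower in this comparison, a call being an adjusted p under 0.05 in edgeR's quasi-likelihood test. PH02Gene05612 was 324 times more abundant at 0.5 years by its counts (95% counting interval 126 to 1192). PH02Gene44577 had 26.4 times more counts in shoots, with an interval of 8.73 to 131, as the 0.5-year group held only 3 counts. Those 3 libraries were closer to each other than the libraries of any other stage, with count differences of 1.78 to 2.50 times sampling noise, measured as chi-square over its degrees of freedom, where other stages had 13.2 to 53.8. Among the markers tested in this comparison, 11 of 14 cell division genes fell, 2 of 25 secondary wall genes rose and 10 fell, and 9 of 63 light harvesting genes rose and 10 fell (edgeR). The light harvesting shares and the share of secondary wall genes that rose were under the 26.5% and 27.3% of all genes. These counts of light harvesting genes and of secondary wall rises rest on single libraries. Without shoot library 3, 32 light harvesting and 4 secondary wall genes rose and 6 light harvesting genes fell. Without any other library of the 2 groups 4 to 6 light harvesting genes rose, 6 to 13 fell and 1 secondary wall gene rose.

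Between the 1-year and the 0.5-year stem, PH02Gene40249 and PH02Gene48180 were lower without overlap, at log2 changes of -1.10 ± 0.72 and -1.48 ± 0.79. The libraries of the other 2 genes overlapped. PH02Gene05612 had a log2 change of -0.48 ± 0.63 and PH02Gene44577 one of 3.98 ± 1.37, which was 1.57 without 1-year library 2, the one with 3.23 FPKM. In this comparison 14.4% of the genes tested were called higher and 16.0% lower. Secondary wall genes summed to 39.8 to 225 FPKM at 1 year, against 753 to 799 at 0.5 years, with 9 of 25 lower, and light harvesting genes to 308 to 378 FPKM against 1036 to 1119, with 27 of 63 lower and 1 higher, or 2 higher without 1-year library 1 (edgeR). Their part in the levels of the synthases was not tested.

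From 1 to 2 years and from 2 to 3 years the libraries of all 4 genes overlapped. The 2-year stem against the 1-year stem gave log2 changes of -0.98 ± 0.73 for PH02Gene40249, -0.63 ± 0.81 for PH02Gene48180, 0.22 ± 0.63 for PH02Gene05612 and 0.95 ± 0.94 for PH02Gene44577. Single libraries set some of these: PH02Gene48180 was at 0.05 without 1-year library 3, PH02Gene44577 at 3.37 without 1-year library 2, and PH02Gene05612 at -0.15 without 1-year library 1 and -0.16 without 2-year library 3. The 3-year stem against the 2-year stem gave -0.29 ± 0.74 for PH02Gene40249, -0.40 ± 0.84 for PH02Gene48180, -0.29 ± 0.63 for PH02Gene05612 and -0.66 ± 0.93 for PH02Gene44577. The sign turned without 2-year library 2 for PH02Gene40249 (0.12) and PH02Gene48180 (0.04), and without 2-year library 3 (0.09) or 3-year library 2 (0.21) for PH02Gene05612. Over all genes tested, 1.03% were called higher and 0.474% lower at 2 years, and 0.0% higher and 0.00677% lower at 3 years, where 2079 genes had an unadjusted p under 0.05 and DESeq2 called 91.

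Over the whole span, PH02Gene05612 was higher in the 3-year stem than in the shoot, at a log2 change of 7.97 ± 1.06, with no overlap. PH02Gene40249 (1.16 ± 0.75), PH02Gene48180 (1.06 ± 0.86) and PH02Gene44577 (0.07 ± 0.92) overlapped with the shoot. Without shoot library 3, PH02Gene40249 was at 3.41, PH02Gene48180 at 3.68 and PH02Gene44577 at -0.11, and without 3-year library 1 PH02Gene44577 was at -0.17. The share of all genes called was 30.2% higher and 35.0% lower.

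In the leaf against the part-set stem, both germacrene D synthase genes were lower and the macrocarpene synthase gene was higher. PH02Gene40249 was lower in leaves at a log2 change of -7.31 ± 0.65. PH02Gene48180 had 0 leaf counts against 558 in stems, so it was at least 187-fold lower, taking a floor of 3 counts over the group. PH02Gene44577 was higher in leaves at 5.01 ± 0.86. Their libraries did not overlap, which was not counted over all genes. Of the 29630 genes tested, 17.5% were called higher and 19.1% lower, from which nothing is read for the 3. Light harvesting and photosystem genes, 88 in this table, summed to 27697 to 35407 FPKM in leaves, with 14 at 0 in each library, and to 3242 to 9892 FPKM in stems, with 16 to 18 at 0, and 54 of 71 tested were higher and 1 lower (edgeR). Their part in these differences was not tested. Fewer cells of a type and less RNA per cell cannot be told apart in such bulk samples.

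Branch and part-set stem libraries overlapped for all of these genes. Log2 changes were -1.12 ± 0.45 for PH02Gene40249, -0.99 ± 0.51 for PH02Gene48180 and 0.93 ± 0.79 for PH02Gene44577. Without branch library 3 the first 2 were -1.69 and -1.64, and PH02Gene44577 was at -0.03 without branch library 2 and 1.91 without stem library 1. Of all genes tested, 0.489% were called higher and 0.3% lower.

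In the rhizome, PH02Gene40249 (-2.47 ± 0.47) and PH02Gene48180 (-1.88 ± 0.52) were lower than in the part-set stem. PH02Gene44577 had 0 counts against 67, at least 23.6-fold lower with the libraries of each group pooled. Its counts were 44, 21 and 2 in stem libraries 1 to 3. The 2 counts of stem library 3 lie under the floor of 3 counts, so the limit does not hold for that library. The libraries of these genes did not overlap, which was not counted over all genes. Of all genes tested, 14.5% were called higher and 15% lower. Rhizome libraries also differed among themselves more than those of other groups, with correlations of log2 levels between libraries as low as 0.789. Light harvesting genes summed to 210 to 239 FPKM in rhizomes, with 26 to 34 of 88 at 0 and 57 of 71 tested lower than in stems (edgeR), and their part in these differences was not tested. Casparian strip membrane genes, markers of a root type endodermis, were at 0 to 0.339 FPKM in sum there and never above 0.73 FPKM in any group of either set.

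Direct comparison of leaf with the other parts gave further limits from counts. PH02Gene44577 was at least 731-fold higher in leaves than in rhizomes and at least 51.2-fold higher in branches than in rhizomes. PH02Gene48180 was at least 107-fold lower in leaves than in branches and at least 53.6-fold lower than in rhizomes.

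Other genes with the same descriptions numbered 15 in the growth stage table and 16 in the plant part table, and 8 passed the filter in each. All 8 that passed are described as germacrene D synthases. The most abundant is an assembled locus, MSTRG.49967 in the growth stage table, with a length of 495 bases and the symbol TPS2. It had 9.79 ± 10.2 FPKM in shoots, 37.0 ± 1.22 at 0.5 years, 36.5 ± 19.8 at 1 year, 19.7 ± 10.3 at 2 years and 21.1 ± 10.97 at 3 years (SD, n = 3 each). Its counts were fractional in 13 of 15 libraries, its correlation with PH02Gene40249 was 0.936 over those libraries, and reads of the 2 may have been divided between them.

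In the 0.5-year stem against the shoot, 5 of these 8 genes rose and none fell (edgeR, adjusted over all genes), with a median log2 change of 2.27 beside -0.04 over all genes tested. Of all genes, 26.5% were called higher and 27.3% lower. PH02Gene40251 rose to 12.8 ± 1.28 FPKM at 0.5 years, against 0.837 ± 1.45 in shoots (4.33 ± 0.93, edgeR adjusted p = 0.0013). PH02Gene40256 rose to 13.9 ± 1.22 FPKM, against 1.80 ± 2.67 (3.35 ± 0.75, edgeR adjusted p = 0.0019). PH02Gene39252 (2.74 ± 0.47), MSTRG.49967 (2.31 ± 0.61) and PH02Gene09088 (2.22 ± 0.75) also rose, while PH02Gene40255 (1.93 ± 0.80), PH02Gene50979 (1.81 ± 1.01) and PH02Gene48178 (1.62 ± 0.80) did not pass the test. Without shoot library 3 all 8 rose. Besides MSTRG.49967, the counts of these genes were mostly fractional too. They were whole in 0% (PH02Gene40256) to 11.5% (PH02Gene40255) of the libraries above 0. Reads may thus have been divided among them and the 2 germacrene D synthase genes followed here, and the part of this in their shared rise was not tested.

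At 1 year against 0.5 years only PH02Gene40256 fell, to 3.11 ± 2.03 FPKM (-2.24 ± 0.72, edgeR adjusted p = 0.030). That call was lost without any 1 of the 3 libraries of the 0.5-year stem, without 1-year library 1 or 2, with the 0.5-year libraries summed to 1 sample, and with limma on log2(FPKM + 0.1). The median log2 change of the 8 was -0.16, and 16.0% of all genes were called lower in this comparison. None passed the test between 1 and 2 or between 2 and 3 years. MSTRG.49967 alone was higher at 3 years than in shoots (1.64 ± 0.60, edgeR adjusted p = 0.028), a call lost in 6 alternatives, among them without shoot library 1 or 2 or 3-year library 2.

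Leaves had less of all 8 of these genes than part-set stems, with a median log2 change of -6.66 beside -0.04 over all genes, of which 19.1% were called lower. MSTRG.59063, the assembled locus of this table with symbol TPS2, fell to 0.745 ± 0.472 FPKM in leaves, against 60.1 ± 19.2 in stems (edgeR adjusted p = 1.9e-05). PH02Gene40256 and PH02Gene48178 were at 0 in all leaf libraries. In branches none of the 8 passed the test.

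Rhizomes had less than stems of 3 of the 8, and of 1 without stem library 3 or without rhizome library 1. PH02Gene50979 (symbol STPS) fell to 0.0933 ± 0.162 FPKM in rhizomes, against 16.6 ± 5.47 in stems (edgeR adjusted p = 0.00056), on 1 count in rhizomes. PH02Gene40255 (-2.50 ± 0.75, edgeR adjusted p = 0.029) and MSTRG.59063 (-1.38 ± 0.41, edgeR adjusted p = 0.026) fell as well. The remaining 5 had log2 changes of -1.13 to -1.36 and did not pass.

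**Figure D4:**
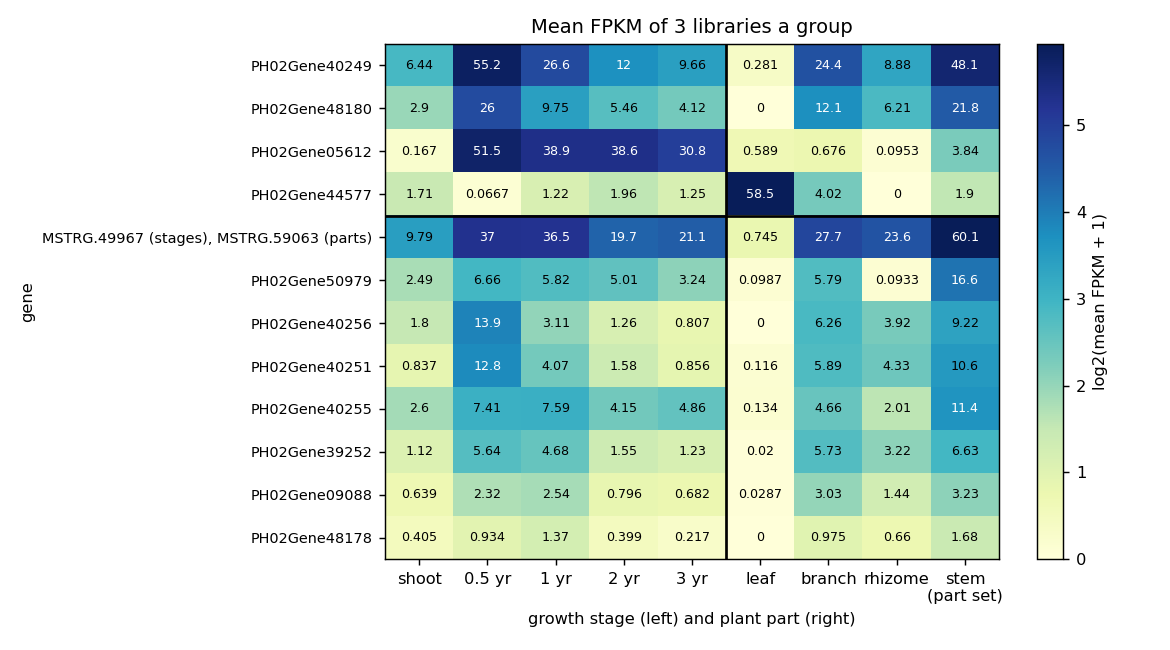
Mean FPKM over 3 libraries (numbers, and color as log2(mean FPKM + 1)) of the 4 synthase genes above the line and the tested genes with the same descriptions below it, in growth stages to the left and plant parts to the right. The germacrene D synthase genes are darker at 0.5 years than in shoots and darker in part-set stems than in leaves, though PH02Gene48178 and PH02Gene09088 stay pale. For these 2 and PH02Gene40255 the 1-year mean is above the 0.5-year mean. PH02Gene44577 is dark in the leaf alone.

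Within the summed FPKM of the 42 genes with KEGG number K15803, the 4 synthases took 14.1 ± 0.348% at 0.5 years, less than in shoots (22.5 ± 3.65%) or at 1 year (48.9 ± 8.82%), 2 years (58.9 ± 9.91%) and 3 years (54.0 ± 19.7%). The sum itself was 911 to 978 FPKM per library at 0.5 years, against 13.01 to 99.6 in shoots and 58.6 to 230 in the older stems. Genes described by a rice clone name made up most of the 0.5-year sum. PH02Gene26515 alone had 290 ± 15.3 FPKM there, against 0.472 ± 0.694 in shoots (edgeR adjusted p = 7.2e-07). PH02Gene05612 took 25.3 ± 15.2%, 38.1 ± 16.3% and 36.2 ± 26.2% of the sum at 1, 2 and 3 years. PH02Gene44577 took 24.5 ± 9.48% of it in leaves, and PH02Gene40249 took 19.2 ± 4.29% in branches, 13.7 ± 6.01% in rhizomes and 20.2 ± 5.19% in part-set stems.

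**Figure D5:**
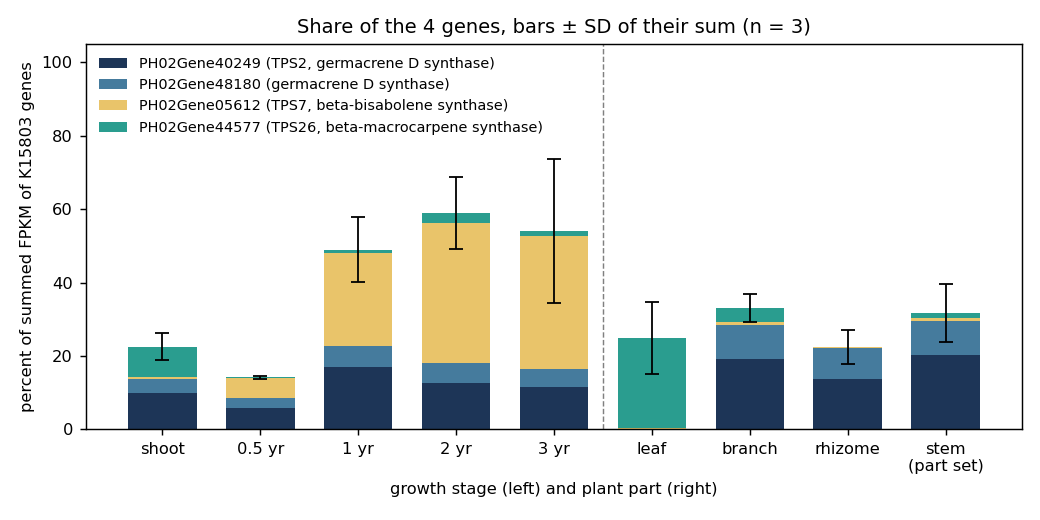
Share of the 4 synthase genes (colors) in the summed FPKM of the 42 genes with KEGG number K15803 (y axis, percent), as group means with ± SD of their sum (n = 3), by growth stage to the left and plant part to the right. The share is smallest at 0.5 years (14.1%) and largest at 2 years (58.9%), where the bisabolene synthase gene holds most of it, and in the leaf it is almost all PH02Gene44577.

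Leaving out these germacrene D synthase genes, 37 further mono- and sesquiterpene synthases were found by words in their descriptions among growth stages, of which 7 passed the filter, and 38 among plant parts, of which 9 passed. At 0.5 years against shoots 3 rose and none fell, or 1 fell without shoot library 2, with PH02Gene09152, an (E)-nerolidol synthase gene, at 270 ± 15.3 FPKM against 0.433 ± 0.733 (edgeR adjusted p = 6.3e-06). At 1 year against 0.5 years 3 fell, among them PH02Gene09152 at 1.22 ± 0.780 FPKM (-7.84 ± 0.86, edgeR adjusted p = 8.5e-05). In leaves against stems 1 rose, or 2 without stem library 3, and 2 fell, and in rhizomes against stems 4 fell. Over all genes 26.5% were called higher and 27.3% lower at 0.5 years, and 14.4% and 16.0% at 1 year against 0.5 years. The shares were 17.5% higher and 19.1% lower in leaves, and 14.5% and 15% in rhizomes. Whether these few synthase genes differ from all genes in this was not tested. The gene that rose in leaves was PH02Gene17926, described as an alpha-humulene synthase, at 5.46 ± 2.26 FPKM against 0.359 ± 0.295 (edgeR adjusted p = 0.0011).

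The most abundant gene of farnesyl diphosphate supply rose in the 0.5-year stem, while another farnesyl diphosphate synthase gene fell. Farnesyl diphosphate synthase and isopentenyl diphosphate isomerase genes numbered 29 in each table, 9 of them tested in the growth stage set. At 0.5 years against shoots 5 rose and 2 fell, with a median log2 change of 0.76. Over all genes 26.5% were called higher and 27.3% lower there, and 14.4% and 16.0% at 1 year against 0.5 years. Only 1 fell at 0.5 years against shoots without any one of the libraries other than shoot library 3. The largest fall was that of PH02Gene27528, a farnesyl diphosphate synthase gene. It had 11.9 ± 0.642 FPKM at 0.5 years, against 40.6 ± 16.4 in shoots (-1.40 ± 0.27, edgeR adjusted p = 0.00063). PH02Gene06534, a farnesyl diphosphate synthase gene, had 277 ± 9.38 FPKM at 0.5 years, against 43.2 ± 23.8 in shoots (3.05 ± 0.37, edgeR adjusted p = 1.4e-05). It had 500 ± 53.1 FPKM at 1 year, which did not pass the test against 0.5 years (0.80 ± 0.34, edgeR adjusted p = 0.090), and at 3 years it was above the shoot (3.94 ± 0.38). At 1 year against 0.5 years 5 of the 9 genes fell and none rose, led by PH02Gene00438 (-2.46 ± 0.59, edgeR adjusted p = 0.0065), and 3 fell without 0.5-year library 1 or 3 or 1-year library 2.

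Among parts, PH02Gene06534 had 83.0 ± 12.3 FPKM in leaves and 62.6 ± 3.64 in rhizomes, against 214 ± 49.9 in stems, and was lower in both (edgeR adjusted p = 0.00087 and 0.00025). The supply genes together went the other way in leaves, with sums of 596 to 673 FPKM there and 284 to 424 FPKM in stems. Their sums in rhizomes were 239 to 412 FPKM and overlapped with the stems. Of the 11 supply genes tested there, 5 rose and 2 fell in leaves, and 4 rose and 4 fell in rhizomes. In leaves 3 rose without stem library 2 or 3, and in rhizomes 2 rose without stem library 3. Another farnesyl diphosphate synthase gene, PH02Gene38408, was higher in leaves (4.91 ± 0.730 FPKM) and rhizomes (19.0 ± 19.9 FPKM) than in stems, where it had 1 count.

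Genes of the mevalonate route did not share 1 direction. Of 18 tested, 5 rose and 6 fell at 0.5 years against shoots (median log2 change -0.40), shares near the 26.5% and 27.3% of all genes called there. PH02Gene21584, a hydroxymethylglutaryl-CoA synthase gene, rose (1.09 ± 0.24, edgeR adjusted p = 0.0018), and PH02Gene06879, a diphosphomevalonate decarboxylase gene, fell (-1.97 ± 0.31, edgeR adjusted p = 0.00013). At 1 year against 0.5 years 2 rose and 4 fell, or 1 and 2 without 0.5-year library 1 or 1-year library 2, and 1 rose without 1-year library 3. In leaves 3 of 20 rose and 4 fell against stems, where 17.5% of all genes were called higher and 19.1% lower. In rhizomes 2 rose and 5 fell, where 5 rose without rhizome library 3, 1 rose without stem library 2 or rhizome library 1 or 2, and 3 fell without stem library 3 or rhizome library 1. PH02Gene07047 and PH02Gene25183, both described as reductases of 3-hydroxy-3-methylglutaryl-CoA, the regulated step of the route, went opposite ways in leaves (1.70 ± 0.40 and -2.02 ± 0.39, edgeR adjusted p = 0.0066 and 0.0024).

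Sterol genes draw on the same precursor. Of 12 squalene synthase, squalene epoxidase and cycloartenol synthase genes, 1 rose and 4 fell at 0.5 years, and 2 rose and 6 fell at 3 years against shoots. Over all genes 26.5% were called higher and 27.3% lower at 0.5 years, and 30.2% and 35.0% at 3 years. At 1 year against 0.5 years 1 rose and 4 fell, where 2 fell without 1-year library 2 and none rose without any other single library. PH02Gene14338, a cycloartenol synthase gene and the most abundant, did not pass at 0.5 years (77.2 ± 3.25 FPKM against 87.9 ± 40.9 in shoots). PH02Gene42720, a squalene synthase gene, rose in leaves to 25.1 ± 1.65 FPKM, against 10.1 ± 3.45 in stems (edgeR adjusted p = 0.0010), 1 of 2 genes that rose there while 1 fell. In rhizomes 1 fell, and 0 to 5 did when 1 library was left out, 5 of them without rhizome library 2.

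Cytochromes P450 of families that oxidise sesquiterpenes in other species were low in stems, the sum of 44 genes being 10.3 to 11.96 FPKM at 0.5 years and 11.4 to 21.3 FPKM in shoots. Of 8 tested, 2 rose and 1 fell at 0.5 years, and 1 rose without 0.5-year library 1. Of all genes tested there, 26.5% were called higher and 27.3% lower. In leaves, where PH02Gene44577 was highest, 4 of 9 rose and none fell, among them PH02Gene11198 (symbol CYP71Z18) at 21.2 ± 2.50 FPKM in leaves, against 8.36 ± 1.95 in stems (edgeR adjusted p = 0.023). With 1 library left out 2 or 3 rose, 2 of them without leaf library 1 or 3 or stem library 1 or 3. Of all genes tested in leaves against stems, 17.5% were called higher and 19.1% lower. In maize CYP71Z enzymes act on beta-macrocarpene, and a link between these P450 genes and PH02Gene44577 was not tested. In rhizomes, where PH02Gene44577 had no counts, 4 also rose, led by PH02Gene47887 at 13.8 ± 13.2 FPKM against 0.131 ± 0.227 (edgeR adjusted p = 0.021), and 2 rose without stem library 1 or 2. Between branches and stems no gene of the synthase, supply, mevalonate, sterol or P450 lists passed, or 1 of the further synthases without stem library 3. Of all genes tested there, only 0.489% were called higher and 0.3% lower.

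Genes whose levels ran most like each synthase were sought by Pearson correlation of log2(FPKM + 1), among 13860 tested genes with a functional description for the growth stages and 14050 for the plant parts. For PH02Gene05612 the closest were PH02Gene12145 and PH02Gene12146, both described as bHLH27, at 0.981 and 0.977 over 15 libraries. PH02Gene12145 had mean FPKM values of 0.315 in shoots and 63.5, 41.9, 49.3 and 27.5 at 0.5, 1, 2 and 3 years. For PH02Gene48180 the closest over the growth stages was PH02Gene40251, another germacrene D synthase gene, at 0.954, followed by the aquaporin gene PH02Gene26641 (TIP4-1) at 0.953. The counts of PH02Gene48180 and PH02Gene40251 were mostly fractional, so reads may have been divided between them. For PH02Gene40249 they were PH02Gene21229 (TIC55) and PH02Gene20012 (BTS), at 0.953 and 0.951, and for PH02Gene44577 the proteinase gene PH02Gene38506 at 0.853.

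Over the plant parts, PH02Gene00425, a probable protein phosphatase 2C gene, was close to both germacrene D synthase genes, at 0.981 with PH02Gene40249 and 0.985 with PH02Gene48180 over 12 libraries. The closest to PH02Gene48180 was PH02Gene07262 (FBX6) at 0.987. PH02Gene44577 ran most like PH02Gene39509 (GLN2), described as plastidic glutamine synthetase, at 0.981, and PH02Gene04872 (ISE2), described as a chloroplastic RNA helicase, at 0.981. PH02Gene39509 averaged 399 FPKM in leaves, 10.6 in branches, 0.320 in rhizomes and 2.66 in stems. These libraries share an organ within a group, so likeness is a description of their order and carries no p-value.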

How the data were processed

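Per the file headers, the authors deposited an expected count and an FPKM value for each gene in each library, and both were taken unchanged. Per the submitters' processing notes the tools include HISAT2, StringTie 1.3.1 and RSEM, with no role given, and no genome build is named in the sources used here. The deposited file stacks the tables of both sets. Counts were rounded and tested with edgeR 4.0.16 in R 4.3.3 (quasi-likelihood test, TMM normalization, all groups of a set in 1 fit), over genes that reached 1 FPKM in 3 or more libraries (29538 of the growth stages, 29630 of the plant parts). P-values were adjusted by the Benjamini-Hochberg method over all genes within each of 8 comparisons, with calls at 0.05, two-sided. The procedure was tested on simulated counts. Alternatives used DESeq2 1.42.0 and limma 3.58.1. Total counts per library limit the precision of low values, and a group at 0 was given a floor of 3 counts.

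The 4 genes and all lists were chosen with earlier results of these data known. Lists rest on words in the descriptions. The word-based terpene synthase list misses genes described only by a clone name, so all genes with KEGG number K15803 were added after the data were seen, as was the count of that list without the germacrene D synthase genes it also holds. No test result of the 4 genes is used. Named genes are the 4, all others of the same descriptions, from each list the most abundant tested gene and the called genes with the largest rise and fall, and the 2 genes of most similar pattern (mean FPKM of 10 or more in some group). PH02Gene26515 is named by the added list.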

Additional observations from a re-analysis of the deposited data

How the results depend on the processing

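Fitted log2 changes of the 4 synthase genes were recomputed 397 times, and 15 of the values had the other sign, all of them in 2 against 1 year, 3 against 2 years, 3 years against shoots or branch against stem. Of the 223 outside the leave-one-out runs, 210 lay within 1 SE of the value as planned and 13, all from limma, did not. RLE size factors shifted the median of all genes by at most 0.053 (log2). For each change below the cause was not tested.

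With the 3 half-year libraries summed to 1 sample, whose spread is then borrowed from the other groups, edgeR called 9418 genes at 0.5 years against shoots, 2137 at 1 year against 0.5 years, 1 at 2 against 1 year and 0 at 3 against 2 years. The numbers of genes called were 15891, 8981, 443 and 2 in the design as planned. DESeq2 called 1788 genes at 2 against 1 year, 91 at 3 against 2 years and 1828 in branch against stem, where edgeR called 234. RLE size factors left 1 gene at 3 against 2 years.

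Limma on log2(FPKM + 1) called 718 genes at 2 against 1 year, 7 at 3 against 2 years and 957 in branch against stem, and on log2(FPKM + 0.1) it called 618 in branch against stem. A pseudocount understates the change of low genes. With 1, PH02Gene05612 was at 5.50 at 0.5 years and 4.35 at 3 years against shoots, PH02Gene44577 at -1.34 at 0.5 years against shoots, 0.79 at 1 against 0.5 years and -1.32 in rhizomes, and in leaves PH02Gene40249 at -5.19 and PH02Gene48180 at -4.45. With 0.1, PH02Gene48180 was at 4.89 at 0.5 years and 2.14 at 3 years against shoots and -7.71 in leaves, PH02Gene05612 at 6.64 at 3 years against shoots, and PH02Gene44577 at 2.12 at 1 against 0.5 years and -3.65 in rhizomes. A fit of only the 6 libraries compared called 110 at 2 against 1 year, 0 at 3 against 2 years, 472 in branch and 3569 (8762 as planned) in rhizome against stem.

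Of the 8 other germacrene D synthase genes, those lower at 1 year numbered 0 with the half-year libraries summed or with limma at 0.1, and 2 with limma at 1 or in the fit of 6 libraries. Those higher at 3 years than in shoots numbered 0 in the last 3 of these settings.

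The replicate block, a term for the replicate number of the labels, gave 0 genes at 3 against 2 years and 24 in branch against stem. It moved no log2 change of the 4 synthase genes by more than 1 SE. Deviations of same-numbered libraries from their group means correlated at -0.135 to 0.216 in 30 pairs of growth stages and -0.151 to 0.189 in 18 pairs of parts, over 0.1 in 4 of each, so the numbers were not taken to pair libraries.

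Leaving out 1 library at a time gave 15 to 1047 genes called at 2 against 1 year, 0 to 2 at 3 against 2 years, 2 to 306 in branch and 5464 to 10235 in rhizome against stem. At 0.5 years against shoots PH02Gene40249 ranged from 3.01 to 5.78, PH02Gene48180 from 3.02 to 6.19 and PH02Gene05612 from 7.92 to 9.65, and at 3 years against shoots they ranged from 0.64 to 3.41, from 0.51 to 3.68 and from 7.37 to 9.09, the upper values all without shoot library 3. PH02Gene44577 ranged from 1.57 to 4.91 at 1 against 0.5 years and from 0.43 to 3.37 at 2 against 1 year. In leaves against stems PH02Gene40249 ranged from -8.22 to -6.88 and PH02Gene44577 from 4.502 to 5.98, and in branches against stems PH02Gene40249 ranged from -1.69 to -0.69, PH02Gene48180 from -1.64 to -0.62 and PH02Gene44577 from -0.034 to 1.91. The 8 other germacrene D synthase genes gave 4 to 8 higher at 0.5 years, 0 to 1 lower at 1 year, 0 to 6 higher at 3 years than in shoots and 1 to 4 lower in rhizomes.

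With 3 libraries a group and counts of a few reads for PH02Gene44577 in the 0.5-year stem and PH02Gene05612 in shoots, fold changes of these genes are known only within wide intervals.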
